A study of Drosophila melanogaster with 10 samples.

Results

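Transcripts of 10 Polycomb group genes were followed in neuroblasts, the stem cells that build the fly brain. The 10 members (Pc, ph-p, ph-d, Psc, Su(z)2, Scm, E(z), esc, Su(z)12 and pho) were chosen by gene name for their function and found under those names among the 14210 genes listed. Neuroblasts of Drosophila melanogaster central brains were sorted as large cells with strong GFP and their polyA RNA was sequenced with a strand-specific library kit in 3 groups. In the first, inscuteable-Gal4, a driver active in neuroblasts, expressed UAS-CD8::GFP (a membrane GFP) and an RNA interference (RNAi) construct against med27, and pupae were taken 0 to 2 h after pupa formation, following 6 days at 29 °C. The second was of wild-type pupae of that age, and the third of wild-type larvae late in their last instar reared for 5 days at 29 °C. Eggs were laid over 24 h in all 3 groups, and for larvae no narrower age window in hours is given. Wild type means here that the driver and the GFP were in a background with an empty landing site (VIE-260B), so all 3 groups carried both transgenes. Every group had 2 biological replicates, and each pupal replicate was sequenced in 2 technical runs, which were averaged. The labels do not say how many animals went into a sort, and RNAi acted wherever the driver was active. No statement of separate crosses or days was found, so p-values measure only the spread between these replicates. RNA was pooled over sorted cells, and fewer cells of a type and less RNA per cell cannot be told apart.

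Polycomb group proteins keep developmental genes silent. Polycomb repressive complex 2 (PRC2) methylates histone H3. PRC1, whose Pc subunit reads that mark, compacts chromatin and modifies histone H2A. The DNA-binding protein Pho helps bring both complexes to their sites on fly chromosomes. In neural stem cells this silencing is best known for holding the Hox genes within their body regions.

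Levels are FPKM (fragments mapped, scaled to transcript length and to the depth of the run), a unit made per gene length by the authors, so that levels of different genes can be set roughly side by side. A trend with transcript length remained, with slopes around gene means from -0.201 to 0.187 on the log2 scale per doubling of length across replicates. Changes are log2 fold changes of FPKM + 1 with the standard error (SE) from limma. They were tested over the 6992 genes with a mean of at least 1 FPKM, with Benjamini-Hochberg adjustment and a threshold of 0.05. All 10 members passed that filter, Su(z)2 only through its pupal values, as both larval replicates lay under 1 FPKM. Read totals are not part of these tables; the width of the authors' confidence bounds implied about 18400000 to 18800000 fragments per larval library and 26900000 to 30800000 per pupal run. The targeted gene, MED27, stood at 5.33 and 3.99 FPKM in the RNAi replicates, against 31.46 and 27.35 in wild-type pupae and 31.7 and 38.35 in wild-type larvae. The defining neuroblast gene dpn stood at 180.5 and 190.7 FPKM in RNAi pupae, 175.6 and 165.5 in wild-type pupae and 165.2 and 150.4 in larvae. Summed over 7 neuroblast markers, levels were 1530 and 1495 FPKM in RNAi pupae, 1701 and 1683 in wild-type pupae and 1430 and 1360 in larvae. Between RNAi and wild-type pupae 0 of these 7 were called higher and 2 lower, beside 19.6% and 8.64% of all genes tested. With the length trend described below removed, 3 were lower, beside 13.5% of all genes, as grh was then called too (-0.33, limma adjusted p = 0.0469). ase, a proneural gene of neuroblasts, had 47.2 and 47.2 FPKM in RNAi pupae against 82.1 and 85.8 in wild-type pupae and fell by 0.82 (limma adjusted p = 0.00224), and the zinc-finger gene klu fell by 0.35 (limma adjusted p = 0.0324). The part of these markers in the members' values was not tested. Summed over 8 neuron markers, levels were 91.1 and 95.04 FPKM in RNAi pupae, 93.9 and 179 in wild-type pupae, and 35.1 and 28.7 in larvae. Wild-type pupal replicate 2 thus had the highest sum, led by fne (73.3 FPKM) and elav (61.8). Their transcripts have 8626 and 10506 nt, and the sum was not corrected for the length trend. None of 5 haemocyte and 5 fat body markers reached 1 FPKM in any replicate. Of 7 glial markers, 3 did (Eaat1, nrv2 and loco), while the defining glial gene repo stayed between 0.0992 and 0.834 FPKM. Between RNAi and wild-type pupae 0 of these 3 were called higher and 1 lower, beside 19.6% and 8.64% of all genes tested. The lower one, Eaat1, fell by 1.77 (limma adjusted p = 0.000522). It had 18.6 and 18.7 FPKM in RNAi pupae, against 61.1 and 71.5 in wild-type pupae and 75.6 and 61.4 in larvae. The part of Eaat1-expressing cells in the members' values was not tested.

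The members spanned a wide range of levels in every group. In RNAi pupae the order by mean FPKM ran from pho (74.0 ± 3.802, SD, n = 2) through E(z) (51.0 ± 0.899), Su(z)12 (44.1 ± 1.32), esc (40.9 ± 0.585), Psc (26.2 ± 0.697), Scm (20.7 ± 1.57), Pc (19.1 ± 0.149) and ph-p (18.3 ± 0.975) to ph-d (15.03 ± 0.194) and Su(z)2 (2.19 ± 0.358). Wild-type pupae had the same first 5 genes in the same order, and there Psc, ph-p, Pc and Scm overlapped their neighbours in the ranking. In larvae E(z) (53.0 ± 0.487 FPKM, n = 2), pho (50.8 ± 11.4) and esc (43.1 ± 6.95) overlapped at the top, and Psc, Scm, ph-p and ph-d formed an overlapping run between 10.8 and 13.0 FPKM on average. E(z), esc, Su(z)12 and pho stood above Pc, ph-p, ph-d, Psc and Su(z)2 in each of the 6 replicates. Set among all genes tested, members lay between the percentile of 36.1 (ph-d) and that of 77.5 (pho) by mean FPKM, apart from Su(z)2 at 3.38. Counting error was small beside this whole range. The authors' upper bounds lay 2.63 to 7.92% above the value for 9 members, and 9.09 to 26.8% for Su(z)2. Beside gaps between neighbours in the order it was not always small. An example is Pc (19.1) and ph-p (18.3) in RNAi pupae, with bounds 4.95 to 7.92% and 2.82 to 5.31% above the value over all runs. These levels were not corrected for the trend with transcript length, whose part in the order of genes was not tested.

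**Figure D1:**
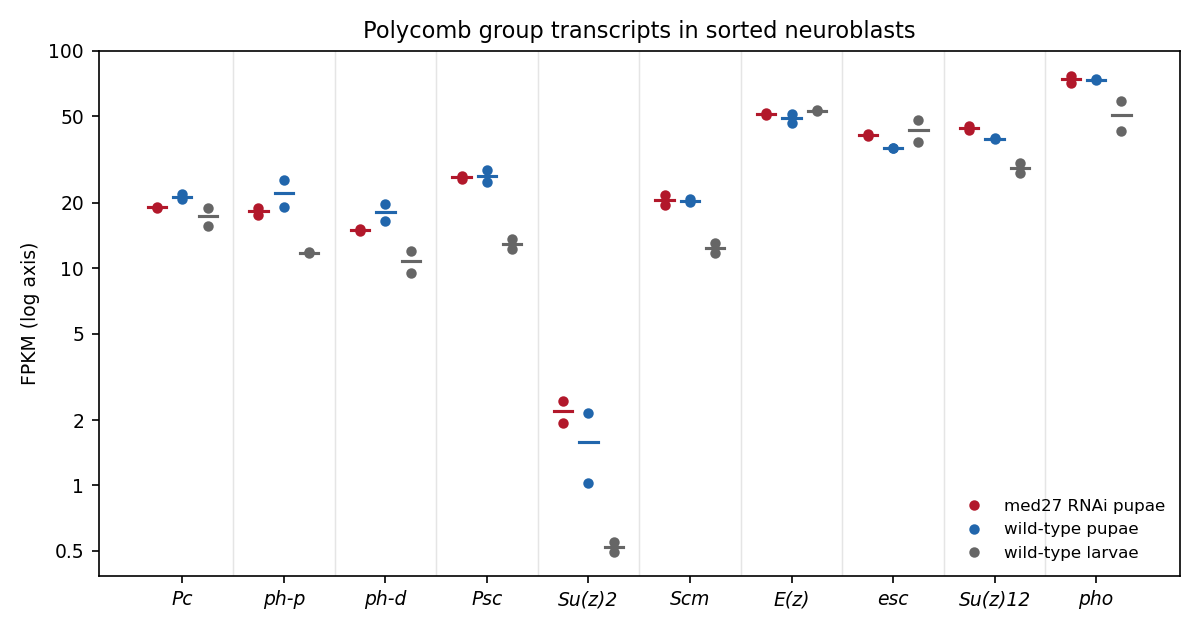
FPKM (log axis) of the 10 members in med27 RNAi pupae, wild-type pupae and wild-type larvae; points are the 2 biological replicates, bars their mean. Larval points lie lowest for Psc, Scm, ph-p, ph-d and Su(z)12, while E(z) stays between 46.6 and 53.3 FPKM throughout.

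The first comparison, of med27 RNAi with wild-type pupae, addressed what the loss of a Mediator subunit does to neuroblast transcripts at one age. None of the 10 members passed the test in either direction, where 28.3% of all genes tested did. No member reached an unadjusted p under 0.05 either, and the smallest limma adjusted p was 0.186. Their median log2 fold change was 0.01, beside 0.05 for all genes tested. Shares of calls differed with transcript length here too. Up to 1000 nt the median was 0.32, with 44.4% of genes higher and 5.09% lower. Above 5000 nt it was -0.097, with 8.75% higher and 12% lower, and from 2000 to 3000 nt 12.7% were higher and 10.1% lower. Calls over all genes leaned to the higher side in RNAi pupae as deposited (69.4% of calls higher) but not with quantile normalization (52.9%), with scaling by the median ratio between replicates (54.2%) or with the length trend described below removed (50.9%). With any of these scalings 0 members were called, the last beside 27.6% of all genes.

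Among the PRC1 genes, the pair ph-p and ph-d came closest to a difference. Both encode Polyhomeotic, a subunit with a SAM domain through which PRC1 polymerises. They are a tandem duplicate on X (ph-d, FBgn0004860, at 2010899 to 2017164 and ph-p, FBgn0004861, at 2020243 to 2030888 in the authors' tables, whose build is not named), 3078 nt apart. As near-identical copies they may share reads, so each value is uncertain. ph-p had 17.6 and 18.9 FPKM in RNAi pupae, against 19.2 and 25.3 in wild-type pupae. Both RNAi values lie below both wild-type values, by a narrow margin on 1 side. The log2 fold change was -0.26 (SE 0.13, limma adjusted p = 0.186), and the 95% interval ran from -0.58 to 0.05. With wild-type pupal replicate 1 left out it was -0.45 and passed (limma adjusted p = 0.0438). The wild-type replicate that then remained is the one with the highest neuron marker sum. Its levels, relative to gene means, also rose most with transcript length, by 0.187 on the log2 scale per doubling against 0.0904 in replicate 1. The part of either in the result was not tested. The authors' deposited table, which holds genes with an adjusted p under 0.01, lists ph-p at a log2 ratio of 0.34 for wild-type over RNAi pupae, the only member among its 1597 genes as used here. ph-d had 14.9 and 15.2 FPKM in RNAi pupae and 16.5 and 19.7 in wild-type pupae (log2 fold change -0.24, limma adjusted p = 0.223). Here too RNAi values were the lower ones. With the length trend removed ph-p was at -0.21 and ph-d at -0.19, and neither passed (limma adjusted p = 0.188 and 0.203).

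The other PRC1 genes and Scm showed smaller differences or wider spread. Pc (FBgn0003042, 3L 21299236 to 21311076), the chromodomain subunit, had 19.0 and 19.2 FPKM in RNAi pupae, against 20.7 and 21.9 in wild-type pupae (-0.15, limma adjusted p = 0.324). Its groups did not overlap, but the 95% interval, from -0.41 to 0.10, included 0. Psc (FBgn0005624, 2R 8853815 to 8868494), a large subunit that compacts nucleosome arrays, had 25.7 and 26.7 FPKM in RNAi pupae and 24.9 and 28.3 in wild-type pupae. The RNAi values lay within the wild-type range (-0.02, 95% interval -0.26 to 0.22). Su(z)2 (FBgn0008654, 2R 8884006 to 8895307), a relative and neighbour of Psc 15511 nt away, had 1.94 and 2.45 FPKM in RNAi pupae and 1.03 and 2.15 in wild-type pupae. Groups overlapped, and the interval was the widest of the 10, from -0.28 to 0.95. Scm (FBgn0003334, 3R 5459081 to 5463329), which links PRC1 and PRC2 through its own SAM domain, had 19.5 and 21.8 FPKM in RNAi pupae and 20.04 and 20.75 in wild-type pupae (log2 fold change 0.02, 95% interval -0.22 to 0.25). The end of Scm overlaps SpdS, a gene at 143 to 243 FPKM, by 315 nt, and whether counting used the strand is not stated, so a share of its value is uncertain. Pc overlaps CG7632 by 63 nt and E(z) overlaps CG34001 by 38 nt, with the same uncertainty on a smaller stretch.

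None of the PRC2 genes passed, and their differences moved with the scaling. E(z) (FBgn0000629, 3L 10627675 to 10631230), the methyltransferase itself, had 50.4 and 51.7 FPKM in RNAi pupae and 51.0 and 46.6 in wild-type pupae, and these overlapped (0.06, 95% interval -0.12 to 0.25). Its direction turned with quantile normalization (-0.08) and median-ratio scaling (-0.03). esc (FBgn0000588, 2L 11827204 to 11829377), the WD-repeat subunit that binds the mark and stimulates E(z), had 41.3 and 40.4 FPKM in RNAi pupae against 35.7 and 35.6 in wild-type pupae. Both RNAi values were higher, at 0.19 on the log2 scale (limma adjusted p = 0.244, 95% interval -0.07 to 0.45). The change of esc came to 0.08 with quantile normalization and 0.10 with the length trend removed. The gene lies wholly inside Pde1c, which stood at 0.738 to 2.27 FPKM. Su(z)12 (FBgn0020887, 3L 19911342 to 19916534), the subunit that holds PRC2 together on nucleosomes, had 43.2 and 45.1 FPKM in RNAi pupae against 39.4 and 39.5 in wild-type pupae, without overlap (0.16, limma adjusted p = 0.202, 95% interval -0.04 to 0.36), and the difference was 0.04 with quantile normalization. pho (FBgn0002521, chromosome 4, 1193094 to 1202271), the sequence-specific DNA-binding gene, had 71.4 and 76.7 FPKM in RNAi pupae and 73.1 and 74.1 in wild-type pupae, where the RNAi values enclosed the others (0.01, 95% interval -0.32 to 0.34). Apart from Su(z)2, every interval in this comparison stayed between -0.58 and 0.45 on the log2 scale.

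**Figure D2:**
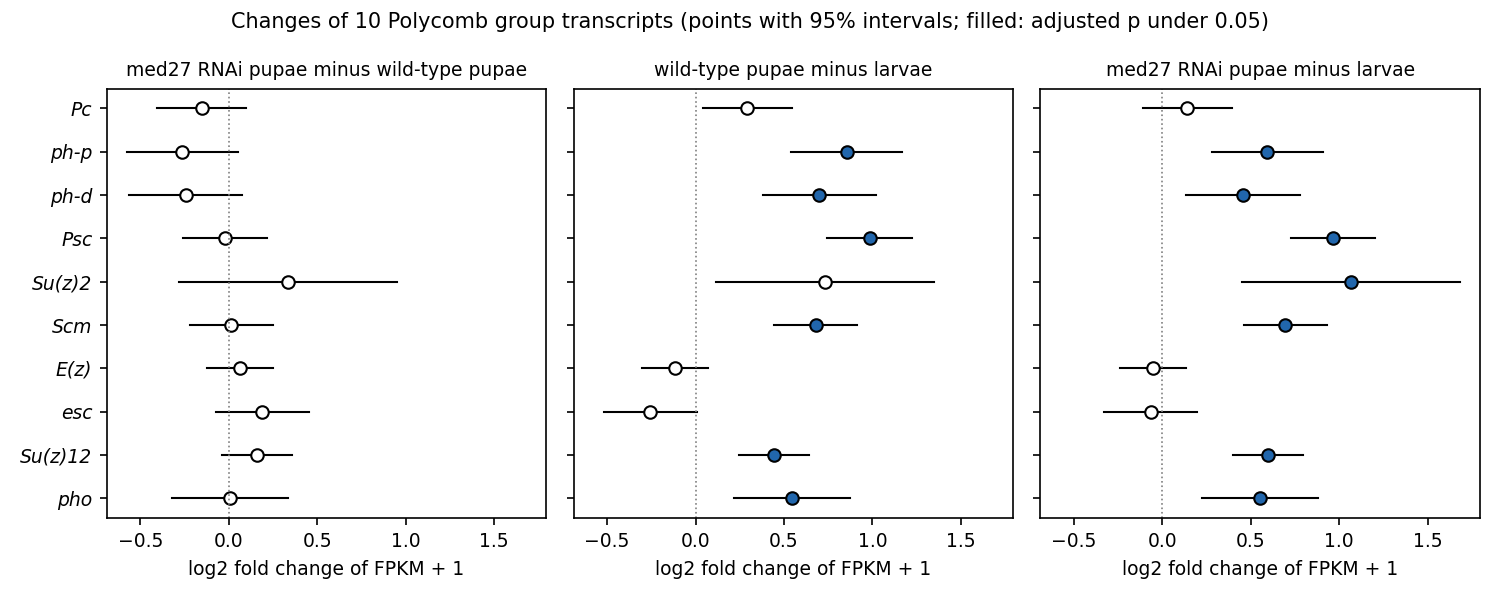
Log2 fold changes of FPKM + 1 with 95% intervals from limma for the 10 members in 3 comparisons; filled points have an adjusted p under 0.05. All points of the RNAi against wild-type pupal comparison are open, and 6 of 10 are filled for wild-type pupae against larvae and 7 of 10 for RNAi pupae against larvae.

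The second comparison, of wild-type pupae with wild-type larvae, asked which transcripts change in neuroblasts at the onset of metamorphosis. As deposited, 6 of 10 members rose and 0 fell: Psc, ph-p, ph-d and Scm on the PRC1 side, Su(z)12 of PRC2, and pho. Of all genes tested 22.7% rose (49.2% were called in either direction), and the members' median of 0.61 stood beside -0.07 for all genes. This count cannot be read by itself, because changes followed transcript length: genes with transcripts above 5000 nt had a median of 0.69 and 76.4% of them rose, those of 2000 to 3000 nt had a median of -0.02 and 17.4% rose, and those up to 1000 nt had a median of -0.39 and 3.78% rose. Members have long transcripts, 9 of 10 above 2000 nt. Of the 4 members above 5000 nt (Psc, ph-p, ph-d and Su(z)2) 3 rose, of the 2 between 4000 and 5000 nt (Scm and Su(z)12) both rose where 56.6% of genes did, and of the 3 between 2000 and 3000 nt (Pc, E(z) and pho) only pho rose. After removal of the length trend from each replicate, 3 of 10 members were higher and 0 lower, beside 13.3% of all genes higher, and the members' median was 0.20. Those 3 were Psc, Scm and pho. The source of the length trend was not tested. Neuron markers moved with the same contrast: all 6 of those tested were higher in wild-type pupae, at a median of 1.63, and 4 of the 6 at a median of 0.93 without the length trend. Among them Syt1, at 0.756 and 0.513 FPKM in larvae, passed the filter only through its pupal values. The part of the neuron markers in the members' changes was not tested.

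**Figure D3:**
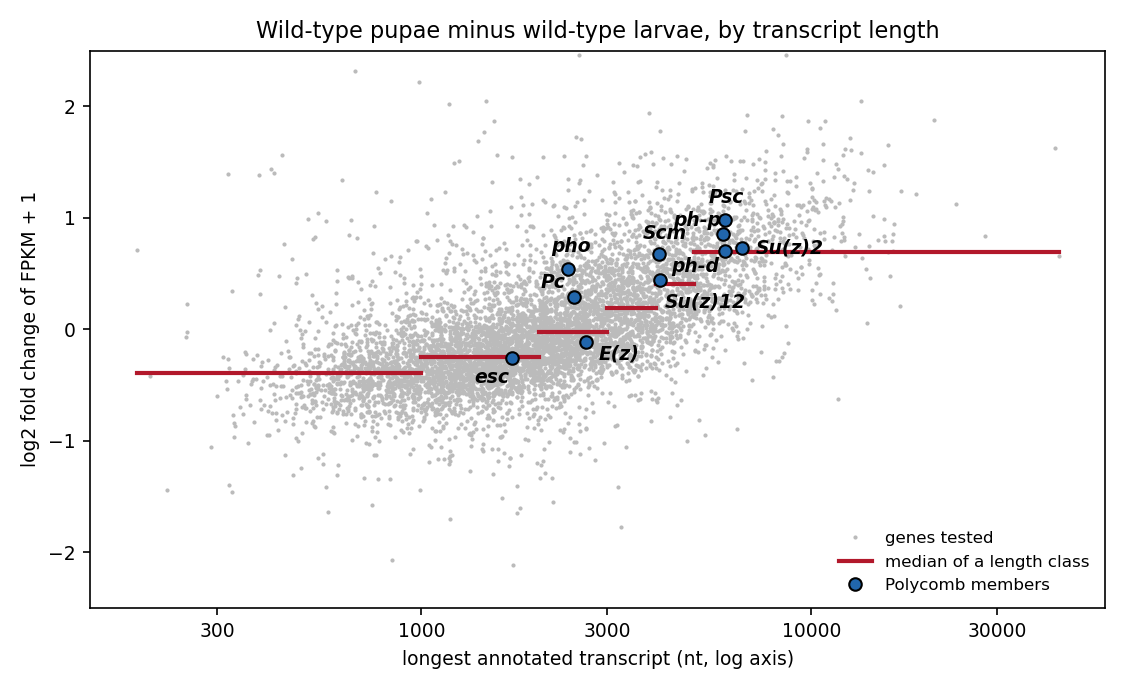
Log2 fold change of FPKM + 1, wild-type pupae minus wild-type larvae, against the longest annotated transcript of each gene (nt, log axis). Grey points are genes tested (17 lie outside the plot), red lines medians of a length class, blue points the 10 members; E(z) and esc lie below the median of their class and the other members above it.

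Psc had the smallest adjusted p of the members in this comparison. It stood at 24.9 and 28.3 FPKM in wild-type pupae, against 13.6 and 12.3 in larvae. Both pupal values lay far above the larval ones, with a ratio of mean FPKM of 2.05. The log2 fold change was 0.98 (SE 0.10, limma adjusted p = 0.0015), and once the length trend was taken out it came to 0.41 (adjusted p = 0.01, limma). Scm was at 20.04 and 20.75 FPKM in wild-type pupae and at 13.0 and 11.8 in larvae, again without overlap. It rose by 0.68 (SE 0.10, limma adjusted p = 0.00252) and by 0.35 without the length trend (limma adjusted p = 0.0211). pho, with a transcript of 2381 nt, was at 73.1 and 74.1 FPKM in wild-type pupae, against 58.9 and 42.7 in larvae. The larval replicates were far apart, and the nearer one still lay below both pupal values. Its change was 0.54 as deposited (SE 0.14, limma adjusted p = 0.017) and the same after the length trend was taken out (adjusted p = 0.0325, limma). Without wild-type pupal replicate 1 or 2, the call of pho ended (limma adjusted p = 0.0512 and 0.0724), as it did with no filter on low genes (0.0593). Without larval replicate 2 the change of pho was 0.32 (limma adjusted p = 0.0342), and without larval replicate 1 it was 0.77 (0.00266).

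The paired polyhomeotic genes and Su(z)12 rose as deposited, and of the alternatives run only removal of the length trend ended their calls. ph-p had 19.2 and 25.3 FPKM in wild-type pupae and 11.8 and 11.7 in larvae, with no overlap (0.85, SE 0.13, limma adjusted p = 0.00301). Removal of the length trend left 0.29 (limma adjusted p = 0.0805). ph-d had 16.5 and 19.7 FPKM in wild-type pupae against 12.04 and 9.469 in larvae (0.70, limma adjusted p = 0.00621), and 0.12 remained without the trend (limma adjusted p = 0.371). In both copies the upper pupal value came from replicate 2, which also had the highest neuron marker sum and the steepest rise of levels with transcript length. Su(z)12 had 39.4 and 39.5 FPKM in wild-type pupae against 30.3 and 27.3 in larvae. Replicates lay close together within each stage, and the change was 0.44 (SE 0.08, limma adjusted p = 0.0057). Without the trend it came to 0.11 and no longer passed (limma adjusted p = 0.275).

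Pc, Su(z)2, E(z) and esc did not pass between wild-type pupae and larvae. Pc had 20.7 and 21.9 FPKM in wild-type pupae, against 18.9 and 15.7 in larvae, a difference of 0.29 on the log2 scale that narrowly missed the threshold (limma adjusted p = 0.0559). It passed without larval replicate 1 (0.42, limma adjusted p = 0.0154). Su(z)2 was at 1.03 and 2.15 FPKM in wild-type pupae and at 0.547 and 0.495 in larvae. All of these values are low, the pupal replicates lie far apart, and the difference of 0.73 gave a limma adjusted p of 0.0519. With a pseudocount of 0.1 instead of 1 it was 1.36 and passed (limma adjusted p = 0.0346), and without wild-type pupal replicate 1 it was 1.05 (limma adjusted p = 0.0149). The length trend removed, it was 0.10 (limma adjusted p = 0.768). E(z) had 51.0 and 46.6 FPKM in wild-type pupae against 53.3 and 52.6 in larvae, slightly lower (-0.12, limma adjusted p = 0.25, 95% interval -0.30 to 0.07). esc was at 35.7 and 35.6 FPKM in wild-type pupae and at 38.2 and 48.0 in larvae (-0.26, limma adjusted p = 0.0944). Larval replicate 2 alone was far above the rest, and with larval replicate 1 left out the call was of a fall (-0.42, limma adjusted p = 0.0088). The authors' deposited table of this comparison holds 1958 genes with an adjusted p under 0.01. It lists 6 members, all higher in pupae: Su(z)2 at a log2 ratio of 1.68, Psc at 1.07, ph-p at 0.96, pho at 0.86, Scm at 0.81 and ph-d at 0.73. These are not the same 6 as those called here. Su(z)2 is listed there but did not pass here, and the PRC2 member called here is not listed. That table holds only genes that passed, so the share of all genes the authors tested cannot be read from it. The length trend was not removed from these ratios.

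**Figure D4:**
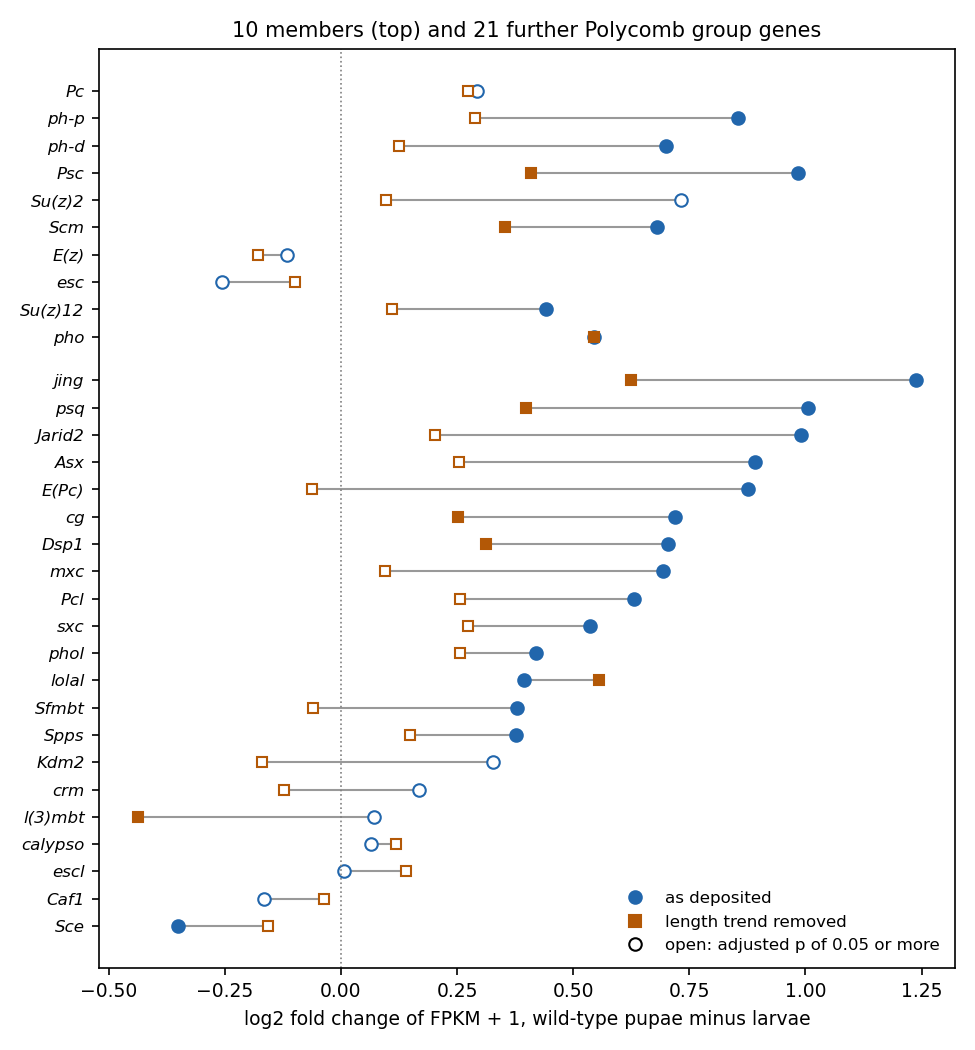
Log2 fold change of FPKM + 1, wild-type pupae minus wild-type larvae, as deposited (circles) and with the length trend removed (squares), for the 10 members and, below them, 21 further Polycomb group genes; open symbols have an adjusted p of 0.05 or more. The shift is large for Psc, ph-p, ph-d and Su(z)2 and near 0 for pho and Pc.

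Ratios within a replicate do not depend on scaling between libraries, and between genes of like length they are little touched by the length trend. With 2 replicates a group they are given as values, with no test. E(z) over Su(z)12 was 1.17 and 1.15 in RNAi pupae, 1.296 and 1.178 in wild-type pupae and 1.76 and 1.92 in larvae. These transcripts differ in length (2650 and 4098 nt). For Scm over Su(z)12, of 4069 and 4098 nt, the ratio was 0.452 and 0.483 in RNAi pupae, 0.509 and 0.525 in wild-type pupae and 0.428 and 0.43 in larvae. In this pair both pupal groups lay above larvae, by a narrow margin. pho over E(z), of 2381 and 2650 nt, came to 1.416 and 1.485 in RNAi pupae, 1.43 and 1.59 in wild-type pupae and 1.10 and 0.812 in larvae. Psc over ph-d, of 6007 and 6020 nt, was 1.725 and 1.759 in RNAi pupae, 1.515 and 1.441 in wild-type pupae and 1.133 and 1.296 in larvae, without overlap between any 2 groups. The sister copies ph-p and ph-d kept a ratio of 1.18 and 1.25 in RNAi pupae, 1.17 and 1.29 in wild-type pupae and 0.981 and 1.23 in larvae, which overlapped. Summed FPKM of the 5 PRC1 members over that of the 3 PRC2 members was 0.586 and 0.601 in RNAi pupae, 0.653 and 0.80 in wild-type pupae and 0.468 and 0.388 in larvae. The sums leave out Sce of PRC1 (43.9 and 41.0 FPKM in RNAi pupae, 38.8 and 36.7 in wild-type pupae, 43.8 and 53.6 in larvae). They also leave out Caf1 of PRC2 (425 and 397, 377 and 388, 413 and 445 FPKM in the same order). The ratio therefore describes the genes summed and not the whole complexes. The summed genes differ in length: Psc, ph-p, ph-d and Su(z)2 have 5940 to 6631 nt and Pc 2462 nt, against 1704 to 4098 nt in PRC2. The length trend was not removed from this ratio, and its part was not tested.

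**Figure D5:**
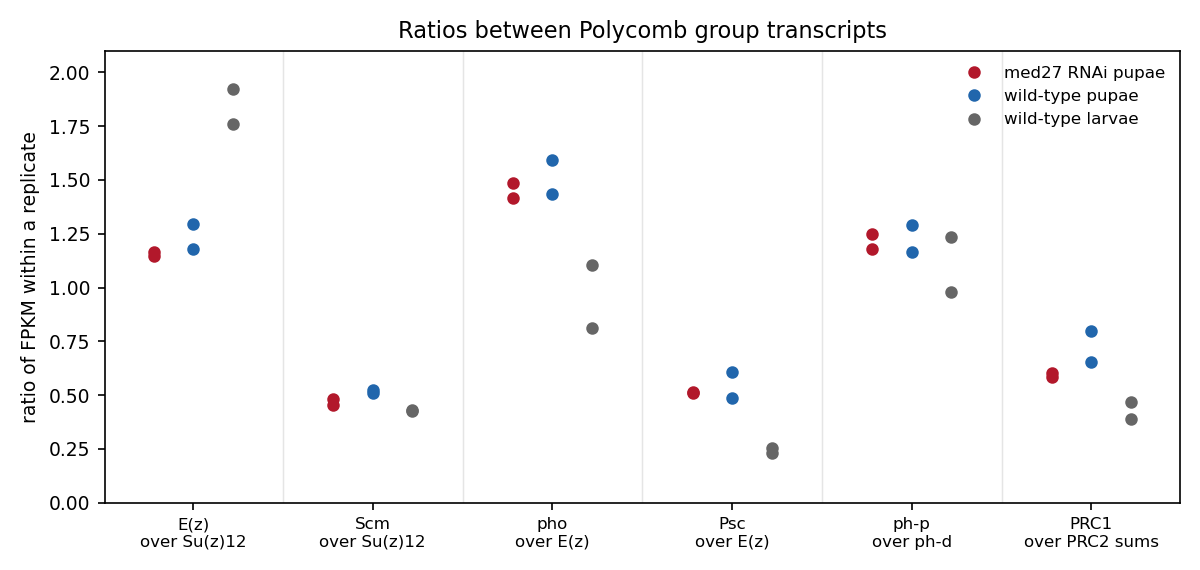
Ratios of FPKM between members within each replicate (vertical axis, no unit), in med27 RNAi pupae, wild-type pupae and wild-type larvae; the last is the summed FPKM of Pc, ph-p, ph-d, Psc and Su(z)2 over that of E(z), esc and Su(z)12. E(z) over Su(z)12 is highest in larvae (1.76 and 1.92), pho over E(z) lowest there (1.10 and 0.812). The length trend was not removed, and transcripts of unlike length enter E(z) over Su(z)12, Psc over E(z) and the ratio of sums.

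The third comparison set med27 RNAi pupae against wild-type larvae, and so differs in genotype and stage together. It shares its samples with the others, and its values are given for completeness. As deposited, 7 of 10 members were higher in RNAi pupae and 0 lower, beside 27.8% of all genes tested that were higher and 47.4% called in either direction. On the log2 scale Psc differed by 0.96 (0.000754), Scm 0.70 (0.00181), Su(z)12 0.60 (0.00171), ph-p 0.59 (0.0102), pho 0.55 (0.016), ph-d 0.46 (0.0295) and Su(z)2 1.07 (0.0141), the adjusted p from limma in brackets. Su(z)2, at 1.94 and 2.45 FPKM in RNAi pupae against 0.547 and 0.495 in larvae, had a ratio of mean FPKM of 4.21. It passed the filter only through the pupal groups, where it is higher, so its call is not independent of the filter. Pc (0.14), E(z) (-0.05) and esc (-0.07) did not pass. Removal of the length trend left 4 members higher, beside 21.3% of all genes (44.3% in either direction): Psc (0.45, limma adjusted p = 0.00362), Scm (0.39, 0.00889), Su(z)12 (0.29, 0.0158) and pho (0.52, 0.0262). ph-d was then at -0.06 (limma adjusted p = 0.641). Without RNAi replicate 2 only 3 members passed, as ph-p, ph-d, Su(z)2 and pho lost their calls (limma adjusted p = 0.0692, 0.126, 0.102 and 0.0888). The call of ph-d also ended without RNAi replicate 1 (limma adjusted p = 0.0925) or larval replicate 2 (0.121), and that of Su(z)2 without larval replicate 2 (0.0568). pho stood at 0.32 without larval replicate 2 (0.0289).

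Around the members, a list of 21 further Polycomb group genes was examined: partners in the same complexes, other recruiters and related repressors. Comparing RNAi with wild-type pupae, 0 were higher and 4 lower (19.6% and 8.64% of all genes tested), with a median of -0.14. jing, a zinc-finger gene linked to PRC2, fell by 0.54 (limma adjusted p = 0.0427), at 20.2 and 21.2 FPKM in RNAi pupae against 25.3 and 36.7 in wild-type pupae. E(Pc), an enhancer of Polycomb found in an acetyltransferase complex, fell by 0.44 (limma adjusted p = 0.0187). The high-mobility-group gene Dsp1 fell by 0.40 (limma adjusted p = 0.036), at 86.8 and 91.9 FPKM against 114 and 122, and the zinc-finger recruiter cg fell by 0.30 (limma adjusted p = 0.042), at 54.6 and 59.2 FPKM against 67.5 and 73.4. All 4 also passed with the length trend removed, where Kdm2, a histone demethylase gene, was called higher (0.44, limma adjusted p = 0.0421, and 0.39 with an adjusted p of 0.0832 as deposited). That made 1 higher and 4 lower of the 21, beside 14.1% and 13.5% of all genes. Kdm2 had 16.4 and 19.1 FPKM in RNAi pupae against 11.6 and 15.1 in wild-type pupae. The sign turned without the trend for calypso, the deubiquitinase gene (0.04 as deposited and -0.0043 without it), and l(3)mbt (-0.03 and 0.02), neither of which passed.

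In wild-type pupae against larvae, 14 of these 21 genes were higher and 1 lower as deposited, beside 22.7% and 26.5% of all genes tested, and 5 higher and 1 lower with the length trend removed, beside 13.3% and 16.1%. jing rose by 1.24 (limma adjusted p = 0.00186), the BTB gene psq by 1.01 (0.00213), Jarid2, a PRC2 accessory gene, by 0.99 (0.00187) and Asx, of a deubiquitinase complex, by 0.89 (0.0034). Without the trend jing (0.62), psq (0.40), Dsp1 (0.31), cg (0.25) and the short gene lolal (0.56) were called higher. Jarid2 (0.20, limma adjusted p = 0.192) and Asx (0.25, limma adjusted p = 0.11) were not. Sce, which encodes the ubiquitin ligase of PRC1, was the only gene called lower as deposited (-0.35, limma adjusted p = 0.0323), with 38.8 and 36.7 FPKM in wild-type pupae against 43.8 and 53.6 in larvae; it came to -0.16 without the trend (limma adjusted p = 0.196). Caf1, the histone-binding subunit of PRC2, was the most abundant of the list at 377 and 388 FPKM in wild-type pupae and 413 and 445 in larvae, and did not pass (-0.16, limma adjusted p = 0.123). In 5 genes the direction turned with removal of the trend: E(Pc) (0.88 as deposited and -0.06 without it), Sfmbt (0.38 and -0.06), Kdm2 (0.33 and -0.17), crm (0.17 and -0.12) and l(3)mbt (0.07 and -0.44, the one called lower).

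Between RNAi pupae and larvae, 12 of the 21 were higher and 0 lower as deposited (27.8% and 19.5% of all genes tested), and 1 higher and 2 lower without the length trend (21.3% and 23% of all genes). sxc, the glycosyltransferase gene super sex combs, was the one higher on both scales, at 0.77 (limma adjusted p = 0.00267) and 0.52 without the trend (limma adjusted p = 0.0094). It had 148 and 146 FPKM in RNAi pupae against 98.4 and 74.9 in larvae. E(Pc) and l(3)mbt were the genes called lower without the trend, at -0.39 and -0.42 (adjusted p of 0.0066 and 0.00522 from limma). As deposited the largest changes were of Jarid2 (0.87, limma adjusted p = 0.0021), sxc, psq (0.76, 0.00459) and Asx (0.72, 0.00658), and the sign turned for E(Pc) (0.44), cg (0.42 and -0.01), Dsp1 (0.31 and -0.06) and l(3)mbt (0.04).

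Classical targets of Polycomb silencing differed widely in level. Of 16 listed, 10 passed the filter, and lab, pb, Dfd, Abd-B, cad and eve did not, with lab at most 1.31 FPKM and eve at most 0.104 in any replicate. Antp was the highest Hox gene, at 14.6 and 18.5 FPKM in RNAi pupae, 14.8 and 18.8 in wild-type pupae and 12.5 and 7.47 in larvae. Ubx had 1.74 and 1.47 FPKM in RNAi pupae, 1.37 and 2.30 in wild-type pupae and 0.770 and 0.590 in larvae. Of the 10 tested, 0 were higher and 4 lower in RNAi than in wild-type pupae (19.6% and 8.64% of all genes tested), with a median of -0.36. inv, a homeobox gene beside engrailed, fell by 1.16 (limma adjusted p = 0.00123), at 3.74 and 3.78 FPKM in RNAi pupae against 9.70 and 9.63. The Hox gene abd-A fell by 0.70, tsh, which encodes a zinc-finger protein, by 0.53, and dac, a nuclear factor of brain and eye, by 0.47 (adjusted p of 0.0417, 0.0199 and 0.0229 from limma). All 4 lower genes also passed without the length trend, where 14.1% of all genes were higher and 13.5% lower. Antp did not pass in that comparison (-0.02, limma adjusted p = 0.966), and its direction turned without the trend (0.02).

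Between wild-type pupae and larvae, 9 of the 10 targets were higher and 0 lower, beside 22.7% and 26.5% of all genes tested, and 4 and 0 without the length trend, beside 13.3% and 16.1%. Among the 9, Ubx (0.770 and 0.590 FPKM) and abd-A (0.683 and 0.803) lay under 1 FPKM in both larval replicates. These genes passed the filter only through the pupal groups, so their place in this count is not independent of the filter. The largest changes were of abd-A (1.04, limma adjusted p = 0.00649), tsh (0.93, 0.00199), dac (0.87, 0.00198) and the segment polarity gene en (0.86, 0.00526). tsh (0.50), dac (0.41), en (0.77) and Dll (0.65) were the 4 that passed without the trend. In RNAi pupae against larvae, 6 were higher and 1 lower (27.8% and 19.5% of all genes tested), the last being inv (-0.75, limma adjusted p = 0.00216). Without the trend (21.3% and 23% of all genes) en was higher (0.45, limma adjusted p = 0.0487) and inv lower (-0.96). As deposited Antp (0.71), Scr (0.60) and en (0.56) had the largest increases among those that passed, Ubx (0.63) did not pass (limma adjusted p = 0.0607), and dac (0.39 and -0.02) and abd-A (0.34 and -0.11) turned direction without the trend.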

How the data were processed

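Members and lists were chosen with earlier results of these data known. The authors deposited FPKM per gene and run with confidence bounds, per the file headers, and 2 tables of comparisons. These hold, per the file headers, the authors' base mean signal of each group, the ratio of both, its log2 and p-values. Tools credited to the submitters' processing notes are DESeq 1.8.3 and HTSeq, Cufflinks 1.3.0, TopHat 1.4.1 and BWA 0.6.1. No genome build is named by the sources. Coordinates count from 1.

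Here technical runs (r = 0.9988 to 0.9991) were averaged, and log2(FPKM + 1) was fitted in limma 3.58.1 (R 4.3.3, intensity trend, 3 groups in one fit, two-sided). The pseudocount understates changes of low genes, Su(z)2 above all. The length trend is a loess curve (span 0.7) of each replicate's deviation from gene means over log2 transcript length (Ensembl 115; 6916 of 6992 genes had one). The fit was tested on simulated data. Named genes were all members, MED27 and, of each list, those called (the 4 largest where over 5 were) or turned in direction by the length trend; Kdm2, sxc, Caf1, the list members called only without the trend, Ubx, and marker and low target genes were named after their values were seen. Tables were joined in pandas 2.3.3 under Python 3.11.15.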

Additional observations from a re-analysis of the deposited data

How the results depend on the processing

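The 10 alternatives (a pseudocount of 0.1, a filter at 5 FPKM or none, quantile normalization, median-ratio scaling, the length trend removed, the 2 compared groups alone, the replicate block, and technical run 1 or 2 alone) and 6 fits without 1 replicate were run. Removal of the length trend moved the members called higher to 3 (from 6) for wild-type pupae against larvae and to 4 (from 7) for RNAi pupae against larvae, and all genes called between wild-type pupae and larvae to 2033 (from 3441). For RNAi pupae against larvae ph-d turned to -0.0622. With no filter 1315 genes were called between RNAi and wild-type pupae, against 1977.

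Leaving out 1 replicate gave 728 to 2254 genes called for RNAi against wild-type pupae, with 0 members higher and 0 to 1 lower. It gave 1917 to 3469 genes for wild-type pupae against larvae, with 5 to 7 members higher and 0 to 1 lower, and 1614 to 3270 genes for RNAi pupae against larvae, with 3 to 7 higher and 0 lower.

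No other scaling, filter or pseudocount moved a count of members by over 1.5 times. With the replicate block, 1537, 3035 and 2938 genes were called for RNAi against wild-type pupae, wild-type pupae against larvae and RNAi pupae against larvae, with 0, 6 and 6 members higher; ph-d lost its call in the last (limma adjusted p = 0.0515). Same-numbered replicates did not deviate together (r = -0.0256, -0.0572 and -0.104). Whether they were collected together is not stated, and these correlations cannot tell. The call of ph-d against larvae also ended with quantile normalization (limma adjusted p = 0.0628), median-ratio scaling (0.0602) and no filter (0.0821), and that of pho with no filter (0.0564). Where a replicate is left out, the lone one is assumed to vary like the other groups. Counting error was largest for Su(z)2, with 56 to 484 fragments per run implied by its bounds.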

Other observations

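Trithorax group genes, whose products oppose Polycomb silencing, were examined as a list of 17 outside the Brahma complex. Between RNAi and wild-type pupae 2 were higher and 2 lower (19.6% and 8.64% of all genes tested), and 2 higher and 3 lower with the length trend removed (14.1% and 13.5%), where fs(1)h was called lower as well (-0.25, limma adjusted p = 0.0238). ash2, a subunit of methyltransferase complexes, had 84.9 and 75.7 FPKM in RNAi pupae, against 137 and 145 in wild-type pupae and 173 and 172 in larvae, and fell by 0.81 on the log2 scale relative to wild-type pupae (limma adjusted p = 0.00131). Trl, the GAGA factor gene, had 32.0 and 35.3 FPKM in RNAi pupae against 49.6 and 54.8 in wild-type pupae, and fell by 0.62 (limma adjusted p = 0.00807). Dpy-30L1 (0.58, limma adjusted p = 0.00779) and kto, a gene of the Mediator kinase module (0.36, limma adjusted p = 0.0413), were higher. All 4 passed with the length trend removed as well. The sign turned without the trend for skd (-0.04 as deposited and 0.08 without it) and ash1 (-0.01 and 0.07), neither of which passed.

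In wild-type pupae against larvae 12 of the 17 were higher and 2 lower as deposited (22.7% and 26.5% of all genes tested), and 5 higher and 2 lower with the length trend removed (13.3% and 16.1%). The largest increases were of fs(1)h (1.37, limma adjusted p = 0.00131), skd (1.36, 0.00132), tna (1.25, 0.00131) and trx, the founding methyltransferase gene of the group (1.25, 0.00186). Without the trend fs(1)h (0.53), skd (0.39) and tna (0.67) passed, and trx did not (0.15, limma adjusted p = 0.254). The direction turned for kis (1.22 as deposited and -0.05 without the trend), Hcf (0.64 and -0.05), ash1 (0.61 and -0.11), trr (0.44 and -0.34), Dpy-30L1 (-0.23 and 0.19) and kto (0.13 and -0.60). The 2 called lower without the trend were kto (limma adjusted p = 0.0125) and Lpt (-0.48, limma adjusted p = 0.0173). In RNAi pupae against larvae 13 were higher and 1 lower as deposited (27.8% and 19.5% of all genes tested), and 7 higher and 3 lower with the length trend removed (21.3% and 23%). ash2, the 1 lower as deposited, fell by 1.10 (limma adjusted p = 0.000399). Without the trend ash2 (-1.06), Lpt (-0.56, limma adjusted p = 0.00542) and Trl (-0.38, limma adjusted p = 0.0324) were the 3 called lower. trx (1.38), skd (1.32) and kis (1.24) led the increases. ash1 (0.60 and -0.04), trr (0.60 and -0.09), Hcf (0.50 and -0.12) and kto (0.49 and -0.16) turned direction there.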
